A study of Mus musculus with 12 samples.

Results

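Of the 55401 genes in the deposited tables, 10 genes of the WNT pathway were examined. They were taken by gene symbol from a list that was drawn up with earlier results of these data known, and all 10 were found in both tables: the ligands Wnt5a, Wnt7a and Wnt7b, the receptor Fzd1, the extracellular modulators Sfrp1, Dkk3 and Apcdd1, and the intracellular genes Axin2, Lef1 and Nkd1. The study asked how nicotinamide adenine dinucleotide (NAD+) acts on adult neural stem/progenitor cells (aNSPCs), and RNA-seq was performed on 12 samples in 4 groups of 3. All aNSPCs came from the forebrain of C57BL/6 mice aged 8 to 10 weeks and were cultured with EGF and FGF-2 in B27-supplemented medium. The proliferating Ctrl group (p_ctrl) had no further additions, and the proliferating NAD+ group (p_NAD) was exposed to 1 mM NAD+. The differentiation Ctrl group (D_ctrl) was given 1 µM retinoic acid and 5 µM forskolin, an activator of adenylyl cyclase, and the differentiation NAD+ group (D_NAD) was given the same additions with 1 mM NAD+. The study does not state whether EGF and FGF-2 stayed in the medium under differentiation conditions. Groups were taken from the sample titles, since the treatment label reads untreated for all 12 samples although the titles of 6 samples name NAD. The study describes the samples of a group as biological repeats, and neither it nor the labels say whether they came from separate mice or cultures, so p-values measure only the spread between these samples.

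WNT proteins are secreted lipid-modified ligands that bind Frizzled receptors on the surface of cells. In the canonical branch, binding together with the LRP co-receptors stops a destruction complex built on Axin from degrading beta-catenin, which then enters the nucleus and acts with TCF/LEF factors on target genes such as Axin2, Nkd1 and Apcdd1, several of which feed back to dampen the pathway. Non-canonical ligands such as Wnt5a act on cell polarity and calcium signalling without beta-catenin, and in the adult brain WNT signals are known for roles in maintaining stem cells and in neurogenesis.

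Values are FPKM, read counts scaled to the length of a gene's exons and to the mapped reads of a sample, so levels of different genes are compared per length. The 12 samples had summed FPKM values from 308828 to 363330 and from 21695 to 24022 genes above 0, and Pearson's r of log2(FPKM + 0.1) between samples of a group ranged from 0.958 to 0.978. Replicate 1 of the proliferating Ctrl group had the highest FPKM sum and the lowest correlations with its group. The 6 neural stem cell markers summed to between 2512 and 2764 FPKM in proliferating Ctrl and between 1528 and 2035 FPKM in proliferating NAD+ samples. Endothelial, microglial and mesenchymal markers summed to at most 0.23, 0.30 and 0.79 FPKM in any sample. The 7 oligodendrocyte lineage markers summed to between 1253 and 1370 FPKM in proliferating Ctrl and between 1006 and 1038 FPKM in proliferating NAD+ samples. For the 8 astrocyte markers the sums were 1077 to 1128 FPKM and 897.5 to 1039 FPKM. With NAD+ under proliferating conditions, 0 of the tested markers on these lists had an adjusted p under 0.05 in limma. The 4 choroid plexus and ependymal markers summed to between 8.71 and 10.65 FPKM in proliferating and 23.63 and 30.72 FPKM in differentiation samples. The 4 proliferation markers (Mki67, Top2a, Ccnb1, Cdk1) summed to between 92.4 and 144 FPKM under proliferating conditions and to between 1.87 and 2.32 FPKM under differentiation conditions. In such bulk samples, fewer cells of a type and less RNA per cell cannot be told apart.

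Under differentiation conditions, the WNT ligand Wnt7a was lower with NAD+ exposure and the receptor Fzd1 was higher, and the other 8 genes did not pass the test. Under proliferating conditions none of the 8 genes that could be tested passed. Between the conditions, Dkk3 was about 33.0-fold higher under differentiation conditions in the Ctrl samples, Nkd1 and Axin2 were 2.80-fold and 1.79-fold lower, and Wnt7a and Fzd1 were lower as well. The samples of the 10 genes are shown in the plot of FPKM by group.

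**Figure D1:**
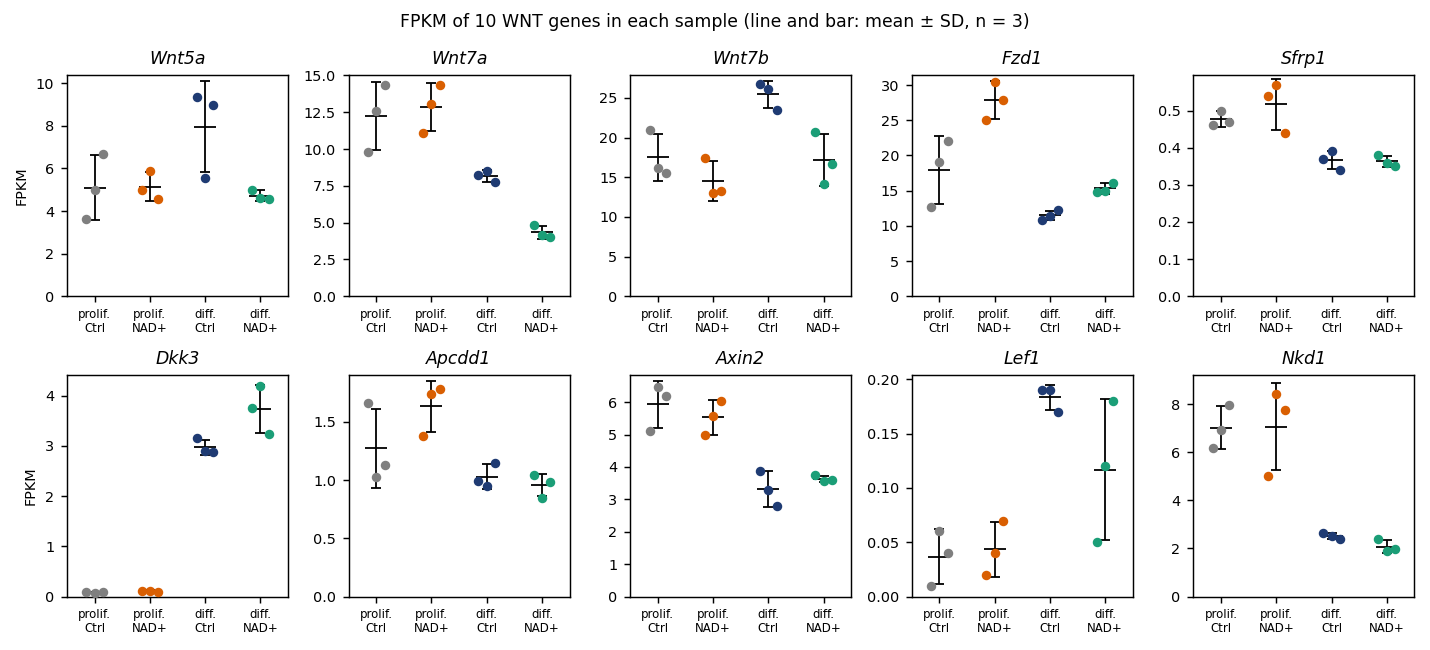
Each panel plots the FPKM of 1 gene (linear axis from 0) in each of the 12 samples, with proliferating (prolif.) and differentiation (diff.) groups, Ctrl and NAD+, on the x axis and a line and bar for the mean ± SD of 3 samples. The 3 differentiation NAD+ samples of Wnt7a lie between 4.02 and 4.85 FPKM, under all other samples, and Dkk3 is at 0.12 FPKM or less in every proliferating sample.

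The ligand with the clearest NAD+ difference was Wnt7a (ENSMUSG00000030093, GRCm38 chr6:91363981-91411363, minus strand), which is known to promote self-renewal of neural stem cells through beta-catenin. Its FPKM values in replicates 1, 2 and 3 were 9.82, 12.56 and 14.36 in proliferating Ctrl samples, and 11.11, 13.04 and 14.38 in proliferating NAD+ samples. They were 8.26, 8.51 and 7.75 in differentiation Ctrl samples, and 4.85, 4.17 and 4.02 in differentiation NAD+ samples. The proliferating groups overlapped each other, every differentiation Ctrl sample was below them, and every differentiation NAD+ sample was lower still. Wnt7a fell with NAD+ under differentiation conditions, from 8.17 ± 0.39 to 4.35 ± 0.44 FPKM (SD, n = 3 each), a level 1.88-fold lower. On the log2(FPKM + 0.1) scale the change was -0.90 (SE 0.092, 95% interval -1.12 to -0.68), with an adjusted p = 0.00665 by limma with Benjamini-Hochberg adjustment over all 19611 genes tested. Under proliferating conditions the change was 0.08 (95% interval -0.31 to 0.47, limma adjusted p = 0.850). The difference between the NAD+ effects of the conditions was -0.98 (95% interval -1.41 to -0.54) and missed the threshold of 0.05 over all genes (limma adjusted p = 0.0666).

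Wnt7b (ENSMUSG00000022382, GRCm38 chr15:85535437-85582473, minus strand) is the closest relative of Wnt7a, and both ligands are recognised by the Reck and Adgra2 (Gpr124) co-receptor pair. Wnt7b was at 20.92, 16.13 and 15.55 FPKM in the proliferating Ctrl samples and at 17.43, 12.98 and 13.22 FPKM in the proliferating NAD+ samples. It was at 26.72, 26.15 and 23.43 FPKM in the differentiation Ctrl samples and at 20.65, 14.15 and 16.63 FPKM in the differentiation NAD+ samples. The differentiation Ctrl samples stood above all other samples, and the other 3 groups overlapped. With NAD+ under differentiation conditions the log2 change was -0.58 (95% interval -0.91 to -0.25), which missed the threshold in limma (adjusted p = 0.0591). Of 6 fits with 1 sample left out, 1 called it, without replicate 1 of the differentiation NAD+ group (-0.72, limma adjusted p = 0.0309). That sample had the highest Wnt7b of its group. Among these fits the change was as small as -0.45 and the adjusted p as high as 0.171. Of 7 other alternatives 1 called it, a minimum mean of 1 FPKM, which leaves fewer genes tested (limma adjusted p = 0.0437), and the highest adjusted p was 0.0948. Under proliferating conditions the log2 change was -0.27 (95% interval -0.66 to 0.12, limma adjusted p = 0.464).

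Since a ratio of genes within a sample does not depend on how that sample was scaled, Wnt7b was also set against Wnt7a. The FPKM ratio of Wnt7b to Wnt7a was 2.13, 1.28 and 1.08 in proliferating Ctrl samples, and 1.57, 0.995 and 0.919 in proliferating NAD+ samples. It was 3.23, 3.07 and 3.02 in differentiation Ctrl samples, and 4.26, 3.39 and 4.14 in differentiation NAD+ samples. Every differentiation sample had a higher ratio than every proliferating sample, and the differentiation NAD+ samples all lay above the differentiation Ctrl samples. The exact two-sided permutation test of these ratios gave p = 0.1 for NAD+ against Ctrl under differentiation conditions and for differentiation against proliferating conditions, the smallest p that 3 samples against 3 allow.

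Wnt5a (ENSMUSG00000021994, GRCm38 chr14:28504750-28527448, plus strand), a ligand known mainly for non-canonical signalling, was at 3.62, 4.98 and 6.66 FPKM in the proliferating Ctrl samples and at 5.00, 5.87 and 4.55 FPKM in the proliferating NAD+ samples. It was at 9.37, 5.53 and 8.99 FPKM in the differentiation Ctrl samples and at 5.00, 4.6 and 4.56 FPKM in the differentiation NAD+ samples. All 3 differentiation NAD+ samples lay below the differentiation Ctrl samples, of which replicate 2 was lower than the other two and within the range of the proliferating samples. The log2 change with NAD+ under differentiation conditions was -0.71 (95% interval -1.19 to -0.22) and missed the threshold in limma (adjusted p = 0.0924). With 1 sample left out it was called in 1 of 6 fits, without replicate 2 of the differentiation Ctrl group (-0.95, limma adjusted p = 0.0196). Among these fits the change was as small as -0.57 and the adjusted p as high as 0.229. It was called under 0 of 7 other alternatives (limma adjusted p from 0.0693 to 0.134). Under proliferating conditions the log2 change was 0.05 (95% interval -0.49 to 0.59, limma adjusted p = 0.937), and its sign turned under median-ratio scaling and quantile normalization.

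The receptor Fzd1 (ENSMUSG00000044674, GRCm38 chr5:4753839-4758035, minus strand), a Frizzled protein that can carry canonical signals, was higher with NAD+ under differentiation conditions. Its FPKM values were 12.70, 19.06 and 22.10 in proliferating Ctrl samples, and 25.09, 30.48 and 27.89 in proliferating NAD+ samples. They were 10.83, 11.39 and 12.22 in differentiation Ctrl samples, and 14.77, 15.01 and 16.15 in differentiation NAD+ samples. The NAD+ samples lay above the Ctrl samples of the same condition in both conditions, and the proliferating Ctrl samples overlapped the differentiation NAD+ samples. Under differentiation conditions Fzd1 rose from 11.5 ± 0.70 to 15.3 ± 0.74 FPKM (SD, n = 3 each), a log2 change of 0.41 (SE 0.068, 95% interval 0.25 to 0.58, limma adjusted p = 0.0222). This call was lost in 5 of 6 fits with 1 sample left out, at adjusted p-values from 0.0523 to 0.0767, and held only without replicate 3 of the differentiation Ctrl group (adjusted p = 0.0484). Under proliferating conditions the log2 change was 0.66 (95% interval 0.18 to 1.15) with an unadjusted p = 0.0148 and an adjusted p = 0.219 in limma. It was 0.43 (adjusted p = 0.154) without replicate 1 of the proliferating Ctrl group, which had the lowest Fzd1. The effects in the conditions differed by -0.25 (95% interval -0.76 to 0.26, limma adjusted p = 0.629).

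Wnt7a and Fzd1 were the genes of the 10 that passed the NAD+ test, and Axin2 is the most used target gene of the pathway, so the sequences around their start sites are shown. They are RefSeq windows of GRCm38.p6 that run from 250 bases before to 50 bases after the start, written 5′ to 3′ on the strand of the gene: chr6:91411304-91411603 (minus strand) for Wnt7a, chr5:4758167-4758466 (minus strand) for Fzd1 and chr11:108920099-108920398 (plus strand) for Axin2. Capitals mark CTTTG or its reverse complement CAAAG, the core of the DNA motif that TCF/LEF factors are known to bind.

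Wnt7a: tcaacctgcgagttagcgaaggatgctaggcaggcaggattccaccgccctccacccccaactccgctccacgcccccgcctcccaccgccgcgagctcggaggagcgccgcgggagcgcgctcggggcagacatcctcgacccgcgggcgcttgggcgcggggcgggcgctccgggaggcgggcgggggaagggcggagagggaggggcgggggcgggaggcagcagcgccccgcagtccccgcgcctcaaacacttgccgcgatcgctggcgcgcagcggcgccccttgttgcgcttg
Fzd1: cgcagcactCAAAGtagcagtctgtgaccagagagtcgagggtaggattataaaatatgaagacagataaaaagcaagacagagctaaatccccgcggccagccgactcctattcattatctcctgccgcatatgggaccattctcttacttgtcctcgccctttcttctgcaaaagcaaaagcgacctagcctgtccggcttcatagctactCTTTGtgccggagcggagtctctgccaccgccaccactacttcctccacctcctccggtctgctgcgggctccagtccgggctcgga
Axin2: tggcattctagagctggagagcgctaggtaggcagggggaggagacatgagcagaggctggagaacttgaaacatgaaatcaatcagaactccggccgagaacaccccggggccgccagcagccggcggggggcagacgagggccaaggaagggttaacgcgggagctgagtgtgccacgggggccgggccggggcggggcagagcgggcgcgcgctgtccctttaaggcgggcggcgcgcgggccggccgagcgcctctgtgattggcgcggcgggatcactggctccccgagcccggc

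The Fzd1 window held 2 cores, starting 241 and 37 bases before the RefSeq start site, and the windows of Wnt7a and Axin2 held none. For Fzd1 that start differs from the gene position given above (chr5:4753839-4758035), since the whole window lies upstream of it. None of these 3 windows held the longer motif, in which each of the next pair of bases after CTTTG is A or T, on either strand. RefSeq windows were given for 5 of the 10 genes (8 windows in all, since Lef1 has 4), and 1 of them held the longer motif, which overlaps a core: a Lef1 window at chr3:131156044-131156343 (plus strand) reads TACAAAG, starting 147 bases before the start. Of all 32851 windows, 53.9% held a core and 16.9% the longer motif. The GC content of the windows was 76.0% for Wnt7a, 70.0% for Axin2 and 54.0% for Fzd1, against a median of 52.7% over all windows. A match describes letters in the window, and bound factors were not measured.

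The soluble modulator Sfrp1 (ENSMUSG00000031548, GRCm38 chr8:23411502-23449632, plus strand), which binds WNT ligands outside the cell, was low in all groups. It was at 0.46, 0.50 and 0.47 FPKM in proliferating Ctrl samples and 0.54, 0.57 and 0.44 FPKM in proliferating NAD+ samples. It was at 0.37, 0.39 and 0.34 FPKM in differentiation Ctrl samples and 0.38, 0.36 and 0.35 FPKM in differentiation NAD+ samples. All differentiation samples were below all proliferating samples, and Ctrl and NAD+ overlapped in both conditions. The log2 change with NAD+ was 0.09 (95% interval -0.40 to 0.58, limma adjusted p = 0.858) under proliferating and -0.01 (95% interval -0.46 to 0.44, adjusted p = 0.985) under differentiation conditions, where its sign turned under both other scalings.

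Dkk3 (ENSMUSG00000030772, GRCm38 chr7:112116017-112159057, minus strand), a divergent member of the Dickkopf family of secreted modulators, was nearly absent from proliferating cells. It was at 0.10, 0.08 and 0.09 FPKM in proliferating Ctrl samples and 0.11, 0.12 and 0.09 FPKM in proliferating NAD+ samples, where its mean was too low for the test. Under differentiation conditions it reached 3.15, 2.89 and 2.88 FPKM in Ctrl samples and 3.75, 4.20 and 3.24 FPKM in NAD+ samples. Each differentiation NAD+ sample was above each differentiation Ctrl sample, with a log2 change of 0.31 (95% interval 0.04 to 0.59) that did not pass the test (limma adjusted p = 0.164).

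Apcdd1 (ENSMUSG00000071847, GRCm38 chr18:62922231-62961179, plus strand) encodes a membrane-bound inhibitor that is itself a target of beta-catenin. It was at 1.66, 1.03 and 1.13 FPKM in proliferating Ctrl samples and 1.38, 1.74 and 1.78 FPKM in proliferating NAD+ samples. It was at 0.99, 0.95 and 1.15 FPKM in differentiation Ctrl samples and 1.04, 0.85 and 0.98 FPKM in differentiation NAD+ samples. Replicate 1 of the proliferating Ctrl group lay among the NAD+ samples, so the groups overlapped in both conditions. The log2 change with NAD+ was 0.36 (95% interval -0.17 to 0.88, limma adjusted p = 0.475) under proliferating and -0.10 (95% interval -0.45 to 0.26, adjusted p = 0.741) under differentiation conditions.

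Axin2 (ENSMUSG00000000142, GRCm38 chr11:108920349-108950783, plus strand), a scaffold of the destruction complex and a widely used readout of canonical signalling, was at 5.12, 6.48 and 6.20 FPKM in proliferating Ctrl samples and 4.98, 5.57 and 6.04 FPKM in proliferating NAD+ samples. It was at 3.89, 3.28 and 2.80 FPKM in differentiation Ctrl samples and 3.74, 3.56 and 3.60 FPKM in differentiation NAD+ samples. All differentiation samples were below all proliferating samples, and Ctrl and NAD+ overlapped in both conditions. The log2 change with NAD+ was -0.10 (95% interval -0.41 to 0.22, limma adjusted p = 0.750) under proliferating and 0.14 (95% interval -0.17 to 0.44, adjusted p = 0.564) under differentiation conditions.

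Nkd1 (ENSMUSG00000031661, GRCm38 chr8:88521354-88594884, plus strand), a feedback inhibitor that acts on Dishevelled, followed the same order of conditions. It was at 6.19, 6.92 and 7.97 FPKM in proliferating Ctrl samples and 5.01, 8.43 and 7.75 FPKM in proliferating NAD+ samples. It was at 2.63, 2.51 and 2.39 FPKM in differentiation Ctrl samples and 2.39, 1.88 and 1.96 FPKM in differentiation NAD+ samples. The differentiation samples were again all below the proliferating samples, and Ctrl and NAD+ overlapped under proliferating conditions and shared the value 2.39 FPKM under differentiation conditions. The log2 change with NAD+ was -0.02 (95% interval -0.52 to 0.48, limma adjusted p = 0.973) under proliferating and -0.27 (95% interval -0.56 to 0.02, adjusted p = 0.236) under differentiation conditions.

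Lef1 (ENSMUSG00000027985, GRCm38 chr3:131110471-131224356, plus strand), a nuclear factor that brings beta-catenin to DNA, was the lowest of the 10 genes. It was at 0.01, 0.06 and 0.04 FPKM in proliferating Ctrl samples and 0.02, 0.04 and 0.07 FPKM in proliferating NAD+ samples. It was at 0.19, 0.19 and 0.17 FPKM in differentiation Ctrl samples and 0.05, 0.12 and 0.18 FPKM in differentiation NAD+ samples. The values are rounded to 0.01 FPKM, the read depth is unknown, and the differentiation NAD+ samples spread from the level of the proliferating samples to that of the differentiation Ctrl samples. Lef1 could be tested only under differentiation conditions, with a log2 change of -0.43 (95% interval -1.21 to 0.35, limma adjusted p = 0.472).

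Across the 10 genes, the NAD+ effect was read against all genes. Under proliferating conditions 0 of 8 tested genes were called by limma at an adjusted p under 0.05, against 0.145% of all 18597 genes tested. At an unadjusted p under 0.05 there was 1 gene of the 8, Fzd1, against 15.4% of all genes, and 1 gene had groups that did not overlap, against 24.1%. Under differentiation conditions 2 of 10 genes were called, against 6.92% of all genes. They were Fzd1 among the higher genes, a direction called for 2.27% of all genes, and Wnt7a among the lower genes, called for 4.65%. There, 5 of 10 genes had an unadjusted p under 0.05 (24.2% of all genes), and the same number had groups that did not overlap (30.7% of all genes). For the difference of the effects between the conditions 0 of 9 genes were called (0.467% of all genes), and 2 had an unadjusted p under 0.05 (15.5% of all genes), Wnt5a and Wnt7a. The exact two-sided permutation test of mean FPKM gave p = 0.1 for each gene whose groups did not overlap, its smallest value.

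**Figure D2:**
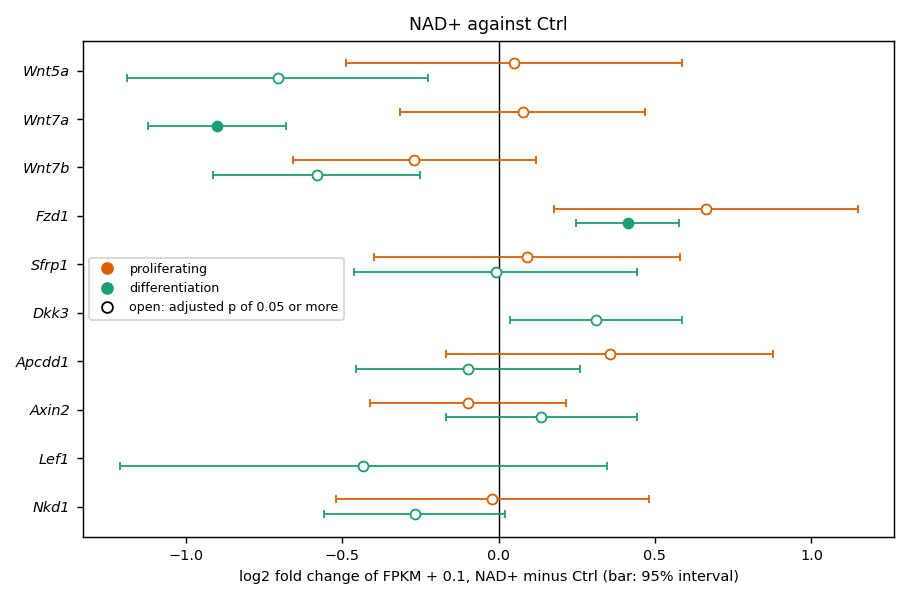
The log2 fold change of FPKM + 0.1, NAD+ minus Ctrl, is plotted for each gene under proliferating (orange) and differentiation (green) conditions with its 95% interval; filled points have a limma adjusted p under 0.05, and genes too low for the test have no point. The filled points are Wnt7a at -0.90 and Fzd1 at 0.41 under differentiation conditions.

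All gene-wise changes with NAD+ under differentiation conditions stand beside a median log2 change of -0.08 over all genes and beside changes in cell type markers. The 8 astrocyte markers, all above 0, summed to between 1462 and 1633 FPKM in Ctrl samples and to between 1911 and 1942 FPKM in NAD+ samples, with 3 called higher and 2 called lower. Most of the higher sum was Gfap, with means of 595 and 977 FPKM, while Aldoc went from 333 to 261 FPKM and Aldh1l1 from 93.5 to 61.3 FPKM. Of the 6 neural stem cell markers 2 were called higher and 1 lower, and their sum was 751 to 837 FPKM in Ctrl samples and 771 to 850 FPKM in NAD+ samples. The 7 oligodendrocyte lineage markers, also all above 0, summed to between 444 and 456 FPKM in Ctrl samples and to between 333 and 367 FPKM in NAD+ samples, with 1 of the 6 tested called lower. Of the 6 neuron markers 0 were called, and their sum was 29.89 to 35.27 FPKM in Ctrl samples and 30.55 to 31.0 FPKM in NAD+ samples. The part of these cell types in the values of Wnt7a and Fzd1 was not tested. Of the calls over all genes, 32.8% were higher with NAD+, and 51.6% under median-ratio scaling, where Wnt7a and Fzd1 were also called.

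The 3 ligands were the main WNT ligand transcripts of proliferating cells. Wnt7b, Wnt7a and Wnt5a made up a median of 43.0%, 33.5% and 13.3% of the summed FPKM of 19 ligand genes in proliferating Ctrl samples. In differentiation Ctrl samples their medians were 35.1%, 10.9% and 12.3%, and the other ligands Wnt5b and Wnt6 made up at least 20.8% and 14.0% in every sample. The ligand sum was 37.5 to 40.4 FPKM in proliferating Ctrl samples and 36.6 to 38.0 FPKM in proliferating NAD+ samples. It was 72.0 to 76.1 FPKM in differentiation Ctrl samples and 48.6 to 59.3 FPKM in differentiation NAD+ samples, so that each of these NAD+ samples was below each Ctrl sample and above the proliferating samples. Of 11 ligand genes tested under differentiation conditions, 7 had all NAD+ samples below all Ctrl samples, and 2 (Wnt9a and Wnt11) had all NAD+ samples above. Over all genes, 30.7% had groups that did not overlap, with both directions counted together. The share of all genes for the lower direction alone is not given here, so the 7 are not read as particular to ligands. By limma, 8 of the 11 had an unadjusted p under 0.05 (24.2% of all genes) and 1, Wnt7a, was called (6.92% of all genes). In all, 7 ligands had a negative and 4 a positive change, and their median log2 change was -0.38, against -0.08 over all genes tested.

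Fzd1 was the third most abundant of the 10 Frizzled transcripts in differentiation Ctrl samples, after Fzd9 and Fzd3. Its share of their summed FPKM had a median of 11.8% in proliferating Ctrl samples and 15.0% in proliferating NAD+ samples, and of 11.8% in differentiation Ctrl samples and 15.2% in differentiation NAD+ samples. Among differentiation samples the shares did not overlap, at 11.5% to 12.1% in Ctrl and 13.5% to 15.5% in NAD+ samples. Fzd3, a receptor known from axon guidance, was called higher with NAD+ beside Fzd1, at 28.04, 27.02 and 28.93 FPKM in Ctrl samples and 33.37, 33.69 and 35.20 FPKM in NAD+ samples (log2 change 0.28, limma adjusted p = 0.0255).

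**Figure D3:**
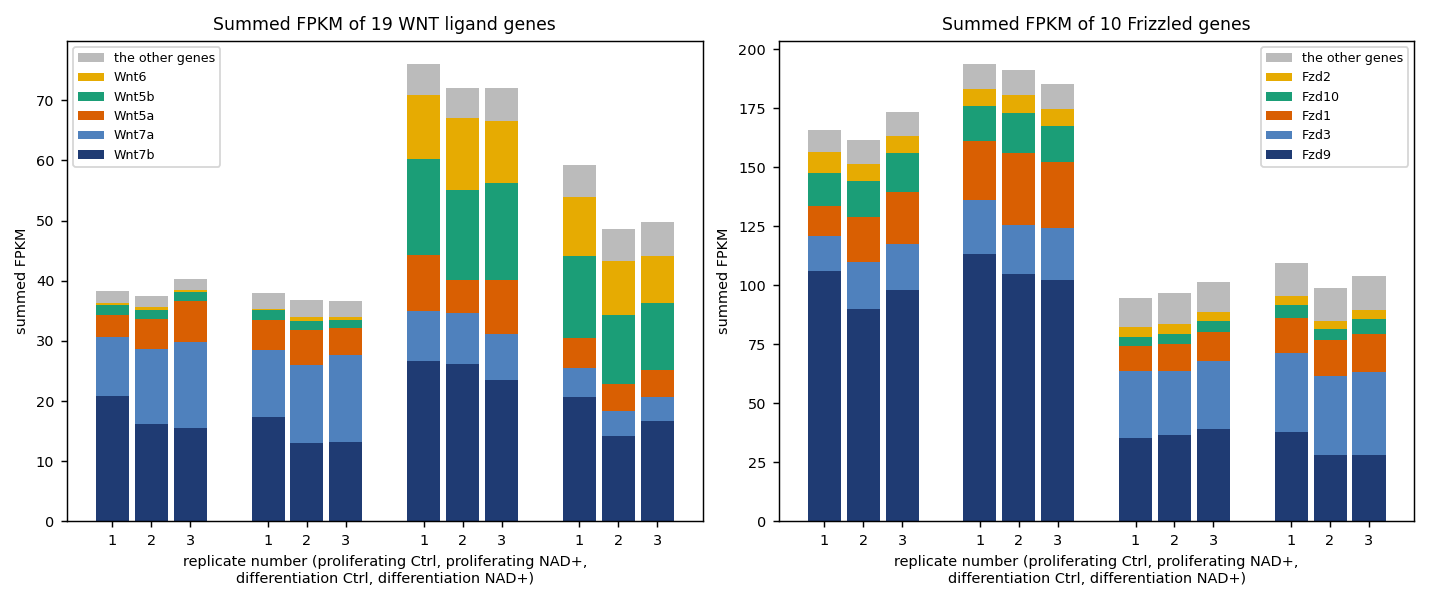
Stacked bars give the FPKM of the 19 WNT ligand genes (left) and the 10 Frizzled genes (right) in each of the 12 samples, in the order of groups named under the axis, with the 5 named genes of each family in colour and the sum of the others in grey. The ligand bars reach 72.0 to 76.1 FPKM in differentiation Ctrl samples and 48.6 to 59.3 FPKM in differentiation NAD+ samples.

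A list of 87 other WNT pathway genes was set beside the 10. Under differentiation conditions 5 of the 69 tested were called with NAD+, 2 higher and 3 lower, and under proliferating conditions 0 of 68 were called by limma, with 11 at an unadjusted p under 0.05 (15.4% of all genes). The 5 called are 7.25% of those tested, near the 6.92% of all genes. The count of 5 fell to 2 or 3 without replicates 1, 2 or 3 of the differentiation Ctrl group or replicates 2 or 3 of the differentiation NAD+ group. Fits with a sample left out have less power for every gene, and their share of all genes called is not given here. The fall is thus not read as particular to this list. Besides Fzd3, the higher gene was Kremen1, a receptor for Dickkopf proteins, at 5.29, 4.94 and 5.23 FPKM in Ctrl samples and 7.47, 7.43 and 7.80 FPKM in NAD+ samples (log2 change 0.55, limma adjusted p = 0.00902). Of the lower genes, the TCF factor Tcf7l1, known mostly as a repressor, went from 6.38, 7.20 and 6.69 FPKM to 4.35, 4.42 and 4.37 FPKM (log2 change -0.61, limma adjusted p = 0.00902). The secreted antagonist Draxin (log2 change -0.49, limma adjusted p = 0.0154) and the beta-catenin co-factor Bcl9l (-0.52, adjusted p = 0.0463) were lower too. For beta-catenin itself, Ctnnb1 had log2 changes of 0.15 under proliferating and 0.01 under differentiation conditions, and for the effector Tcf7l2 they were -0.26 and -0.28, none of which passed the test. The co-receptors of the Wnt7 ligands did not pass either, at -0.23 for Reck and -0.27 for Adgra2 under differentiation conditions. By role, 0 of 13 beta-catenin target genes and 0 of 15 cytoplasmic transducers tested were called under differentiation conditions (2 and 3 at an unadjusted p under 0.05), and 2 of 12 nuclear effectors and 2 of 12 antagonists were. Over all genes these shares were 6.92% called and 24.2% at an unadjusted p under 0.05, and lists of this size cannot be told from them by such counts.

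Differentiation and proliferating conditions were then compared within the Ctrl and within the NAD+ samples. The additions to the medium and the deposited table change together here, and EGF and FGF-2 may change as well, so their parts cannot be told apart. Of 9 genes tested in the Ctrl samples, 7 were called by limma, against 56.7% of all genes. Higher were Dkk3, Wnt5a and Wnt7b (a direction called for 25% of all genes), and lower were Wnt7a, Fzd1, Axin2 and Nkd1 (31.6% of all genes). In the NAD+ samples 6 of 9 genes were called, against 58.4% of all genes. Dkk3 was higher (20.8% of all genes), and Wnt7a, Fzd1, Axin2, Nkd1 and Apcdd1 were lower (37.6% of all genes). With 9 genes tested, these shares of 77.8% and 66.7% are near the background. Dkk3 passed the filter for both counts only through its differentiation samples.

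**Figure D4:**
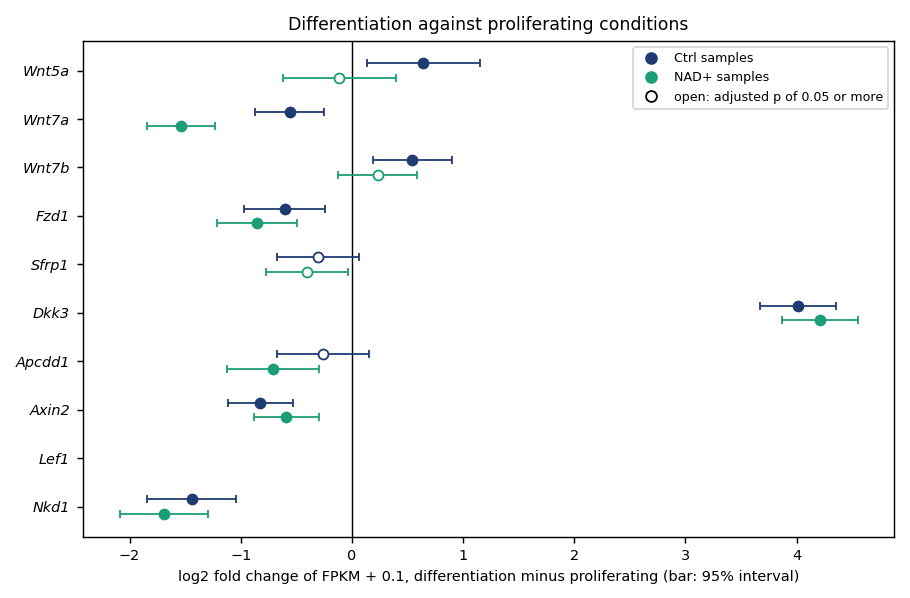
The log2 fold change of FPKM + 0.1, differentiation minus proliferating conditions, is plotted for each gene in the Ctrl (dark blue) and NAD+ (green) samples with its 95% interval; filled points have a limma adjusted p under 0.05, and Lef1 was too low for the test. Dkk3 lies at 4.02 and 4.21, and Nkd1 at -1.44 and -1.69.

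The change of Dkk3 was the largest of the 10 genes. Its mean FPKM was 0.09 in proliferating and 2.97 in differentiation Ctrl samples, and 0.11 and 3.73 in the NAD+ samples. Every differentiation sample was above every proliferating sample, with a log2 change of 4.02 (95% interval 3.67 to 4.36, limma adjusted p = 1.03e-08) in Ctrl and of 4.21 (95% interval 3.87 to 4.55, adjusted p = 6.12e-09) in NAD+ samples. With 0.1 added to low values this scale understates the change, and the log2 change in Ctrl samples ranged from 1.87 with 1 added to 4.90 with 0.01 added. Dkk3 passed the filter of 0.1 FPKM over the 12 samples only through the differentiation samples, where it is high. Its limma p-values are thus no separate support for the rise. Dkk3 made up a median of 0.302% of the summed FPKM of 17 antagonist genes in proliferating Ctrl samples and of 12.4% in differentiation Ctrl samples.

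Both feedback genes measured above 1 FPKM in every sample fell on differentiation. Nkd1 fell by 1.44 (95% interval -1.84 to -1.04, limma adjusted p = 4.66e-05) in Ctrl and by 1.69 (-2.09 to -1.29, adjusted p = 1.15e-05) in NAD+ samples on the log2 scale. Axin2 fell by 0.82 (-1.11 to -0.53, limma adjusted p = 0.000295) in Ctrl and by 0.59 (-0.88 to -0.30, adjusted p = 0.00263) in NAD+ samples, where median-ratio scaling gave -0.21 and an adjusted p = 0.145. Apcdd1 fell by 0.71 (-1.12 to -0.30, limma adjusted p = 0.00704) in NAD+ samples and had a change of -0.26 (-0.67 to 0.16, adjusted p = 0.264) in Ctrl samples. The NAD+ call of Apcdd1 too was lost under median-ratio scaling (adjusted p = 0.145). Over the whole list of beta-catenin targets, which holds these genes, 8 of 12 tested were called lower and 0 higher in Ctrl samples, and 9 were called lower in NAD+ samples, against 31.6% and 37.6% of all genes. Lef1 and Sp5 of the list were too low for the test. In Ctrl samples Lef1 was at 0.01 to 0.06 FPKM under proliferating and 0.17 to 0.19 FPKM under differentiation conditions. Sp5 was at 0, 0.19 and 0 FPKM in proliferating Ctrl samples and at 0 FPKM in all differentiation Ctrl samples. The median of the list was -0.67 in Ctrl samples, against -0.06 over all genes, and -0.65 in NAD+ samples, against -0.20. Ccnd1, a target that also drives the cell cycle, had the largest fall of the list, from 79.92, 122.54 and 128.82 FPKM to 2.70, 2.71 and 3.32 FPKM in Ctrl samples (log2 change -5.17), beside the proliferation markers, all 4 of which were called lower.

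Among the ligands, Wnt7a fell by 0.56 (-0.87 to -0.25, limma adjusted p = 0.0054) on the log2 scale in Ctrl samples and by 1.54 (-1.85 to -1.23, adjusted p = 3.42e-06) in NAD+ samples. Wnt7b rose by 0.54 (95% interval 0.19 to 0.90, limma adjusted p = 0.014) in Ctrl samples, and its change of 0.23 (95% interval -0.13 to 0.59) in NAD+ samples did not pass (adjusted p = 0.243), though it did under both other scalings. The rise of Wnt7b in Ctrl samples missed the threshold without replicate 3 of the proliferating Ctrl group (adjusted p = 0.0540). Wnt5a rose by 0.64 (95% interval 0.13 to 1.15, limma adjusted p = 0.0337) in Ctrl samples, but the groups overlapped. That call was lost without replicates 1 or 2 of the proliferating Ctrl group or replicates 1 or 3 of the differentiation Ctrl group, where the log2 change ranged from 0.42 to 0.65 and the adjusted p from 0.0661 to 0.128. In NAD+ samples the change of Wnt5a was -0.11 (95% interval -0.62 to 0.39, adjusted p = 0.696). The receptor Fzd1 fell by 0.61 (-0.97 to -0.24, limma adjusted p = 0.00872) in Ctrl and by 0.85 (-1.22 to -0.49, adjusted p = 0.000967) in NAD+ samples. In Ctrl samples the calls of Wnt7a and Fzd1 were lost under quantile normalization, at -0.32 (adjusted p = 0.0552) and -0.31 (adjusted p = 0.108). Sfrp1 had changes of -0.31 (-0.67 to 0.06, adjusted p = 0.141) in Ctrl and -0.41 (-0.78 to -0.04, adjusted p = 0.0563) in NAD+ samples. It was called under quantile normalization in both, at -0.62 and -0.57, and in NAD+ samples also with 1 added and without replicate 3 of the proliferating NAD+ group, while median-ratio scaling gave -0.13 and -0.095.

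These changes stand against a median over all genes of -0.06 in Ctrl and -0.20 in NAD+ samples, and median-ratio scaling moved the medians to 0.14 in both. Relative to the median of all genes, the changes in Ctrl samples were 4.08 for Dkk3, -1.38 for Nkd1, -0.76 for Axin2, 0.70 for Wnt5a, 0.60 for Wnt7b, -0.55 for Fzd1 and -0.50 for Wnt7a. In NAD+ samples they were 4.41 for Dkk3, -1.49 for Nkd1, -1.34 for Wnt7a, -0.65 for Fzd1, -0.51 for Apcdd1 and -0.39 for Axin2. Among the calls over all genes, 44.2% were higher in Ctrl and 35.6% in NAD+ samples, and 57.0% and 56.5% under median-ratio scaling. Without replicate 1 of the proliferating Ctrl group, the changes in Ctrl samples were 4.05 for Dkk3, -1.53 for Nkd1, -0.92 for Axin2, -0.83 for Fzd1, -0.71 for Wnt7a and 0.68 for Wnt7b, all still called.

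Of the 68 other WNT pathway genes tested, 40 were called between the conditions in Ctrl samples, 18 higher and 22 lower, and 43 in NAD+ samples, 14 higher and 29 lower. These are 58.8% and 63.2% of those tested, near the 56.7% and 58.4% of all genes. Among called genes with a mean of at least 1 FPKM over the 12 samples, the largest rises in Ctrl samples were those of the ligands Wnt6, from 0.35, 0.50 and 0.25 FPKM to 10.62, 11.97 and 10.32 FPKM in Ctrl samples, and Wnt8b, from 0.08, 0.05 and 0.08 FPKM to 2.37, 2.19 and 2.85 FPKM. The ligand Wnt5b, the closest relative of Wnt5a, went from 1.54, 1.52 and 1.64 FPKM to 15.97, 14.97 and 16.06 FPKM. The Wnt5a receptor Ror1 rose by 2.21, the Wnt7 co-receptor Reck by 1.53 and the destruction complex gene Apc2 by 1.52 on the log2 scale. After Ccnd1, the largest falls among the same genes were those of the receptor Fzd10 (log2 change -1.80), the secreted antagonist Frzb (-1.52), the receptor Fzd9 (-1.40), the antagonist Sfrp2 (-1.27) and the receptor Fzd2 (-0.94), all called in Ctrl and in NAD+ samples. Wnt6, Wnt8b and Ror1 reached the mean of 1 FPKM only through the differentiation samples, and Frzb only through the proliferating samples.

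The order of the 4 groups was then compared with that of other genes. For 3 genes, Sfrp1, Axin2 and Nkd1, the 6 proliferating samples were all above the 6 differentiation samples, while Ctrl and NAD+ overlapped within a condition. For Wnt7a the order was the same with the differentiation groups apart from each other. Lower levels under differentiation conditions are common, called for 31.6% of all genes in Ctrl and 37.6% in NAD+ samples. This order is thus not read as particular to these genes. For Fzd1 the proliferating NAD+ samples stood highest and the differentiation Ctrl samples lowest, with the groups between them overlapping. Neighbouring groups in the order of Wnt5a, Apcdd1 and Lef1 all overlapped. Among 12928 genes with a mean of at least 1 FPKM, the gene most like Wnt7a over the 12 samples by Pearson's r of log2(FPKM + 0.1) was Fnbp1l (r = 0.98), followed by Mark3 (0.98). For Fzd1 the most alike were Itgb1 (0.99) and C2cd3 (0.98), for Nkd1 Bex2 and Hdac1 (0.99 each), and for Dkk3 Ctso and Ank (1.00 each). For Wnt5a the closest was Sh3d19 at 0.89, for Wnt7b Mgat5b at 0.95, for Axin2 Sms-ps at 0.97, for Sfrp1 Gm9396 at 0.95, for Apcdd1 Rpn1 at 0.94 and for Lef1 Ccdc59 at 0.96. The 12 samples share 4 groups and their scaling, so these values describe how alike the group levels are.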

How the data were processed

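RNA-seq was performed on 12 mouse aNSPC samples. The authors mapped reads to mm10 with Hisat2, kept uniquely mapped reads, counted them with FeatureCounts and deposited FPKM values in 1 table per condition, rounded to 0.01. The program behind the FPKM values is not given in the sources used here. Such values hold no read counts, so depth and counting error are unknown. The deposited tables also hold the authors' own fold change, its log2, p-values and q-values, which were not used. All 12 sample columns were used, and 0 were left out.

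The deposited FPKM values were not scaled further, and log2(FPKM + 0.1) was used. For each condition, limma 3.58.1 (R 4.3.3) compared NAD+ with Ctrl for genes averaging at least 0.1 FPKM over its 6 samples (variance moderated with a trend over expression, two-sided, Benjamini-Hochberg over all tested genes, called at an adjusted p under 0.05). A fit of 4 group means over all 12 samples gave differentiation against proliferating conditions and the difference of the NAD+ effects, for genes with a mean of at least 0.1 FPKM over the 12. On the log2(FPKM + 0.1) scale the change of low genes is understated. The fits of NAD+ against Ctrl were also run on simulated data, with changes placed only in genes averaging at least 1 FPKM. The outcome is not given here, and those runs say nothing on finding changes in lower genes. Exact permutation tests of 3 samples against 3 were two-sided and cannot go below p = 0.1.

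The 10 genes and the lists were chosen with earlier results of these data known. Named besides the 10 were listed WNT genes called for NAD+ or for the difference of its effects, the 6 largest rises and 6 largest falls of differentiation in Ctrl samples among called genes with a mean of at least 1 FPKM, and Ctnnb1, Tcf7l2, Reck and Adgra2 whatever their values. For each of the 10, the 2 genes with the highest r were taken as most alike. Positions come from GENCODE M21 (GRCm38), and 55141 of 55401 gene IDs were found there. Alternatives were 1 or 0.01 added, no filter or a mean of at least 1 FPKM, median-ratio scaling, quantile normalization, the replicate number as a block, each sample left out in turn, and an unadjusted p under 0.05 with over 2-fold change.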

Additional observations from a re-analysis of the deposited data

Results flagged for a closer look

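Sfrp5, a secreted WNT antagonist outside the 10 genes, was called for the difference of the NAD+ effects between the conditions. It was at 0.06, 0.14 and 0 FPKM in proliferating Ctrl samples and 0.55, 0.41 and 0.64 FPKM in proliferating NAD+ samples, a log2 change of 2.00 (limma adjusted p = 0.114). It was at 1.20, 1.01 and 1.08 FPKM in differentiation Ctrl samples and 0.73, 0.49 and 0.53 FPKM in differentiation NAD+ samples, a log2 change of -0.82 (adjusted p = 0.0519). Sfrp5 averaged 0.067 FPKM in proliferating Ctrl samples, under the filter of 0.1 FPKM, and passed it for the proliferating test only through the NAD+ samples. Its limma p-value there is thus no separate support for a rise. The difference of the effects was -2.82 on the log2 scale (limma adjusted p = 0.0224), and it rests on the same proliferating Ctrl values near the 0.1 added. The call was lost with 0.01 added before the log2, with the replicate number as a block, and without replicate 3 of the proliferating NAD+ group, any 1 of the 3 differentiation Ctrl samples, or replicates 2 or 3 of the differentiation NAD+ group.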

How the results depend on the processing

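Of 632 single-gene values recomputed for the 10 genes under the alternatives, 590 kept their direction and their side of the threshold, 16 lost the call, 9 gained it and 17 turned in sign. Wnt7a under differentiation conditions was called under every alternative run with adjusted p-values (0.00426 to 0.0373). For NAD+ under proliferating conditions, the values that turned in sign were Wnt5a at -0.024 (median-ratio scaling) and -0.055 (quantile normalization), and with 1 sample left out Wnt5a from -0.169 to 0.262, Wnt7a from -0.072 to 0.200 and Nkd1 from -0.163 to 0.207. For NAD+ under differentiation conditions they were Sfrp1 at 0.049 (median-ratio) and 0.117 (quantile), and from -0.051 to 0.026 with 1 sample left out, and Apcdd1 at 0.017 (quantile). For the difference of the effects Sfrp1 was at 0.033 (median-ratio) and 0.043 (quantile), and for differentiation in NAD+ samples Wnt5a was at 0.263 and 0.201. The cause was not tested.

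With an unadjusted p under 0.05 and over 2-fold change, the genes of the 10 called were 0 for NAD+ under differentiation conditions, 2 for differentiation in Ctrl and 3 in NAD+ samples, since most of the called changes are below 2-fold. The other WNT genes called by that rule were 2 for NAD+ under proliferating and 2 under differentiation conditions, 17 for differentiation in Ctrl and 21 in NAD+ samples. The share of all genes that passes that rule is not given here, so these counts are not read as a result about the WNT genes. With 1 sample left out, NAD+ under differentiation conditions called 1 to 2 of the 10 genes and 2 to 5 of the other WNT genes, and the difference of the effects called 0 to 3 of the other WNT genes. That last count, 1 as reported, was 0 with 0.01 added and 0 with a mean of at least 1 FPKM, where Sfrp5 was not tested. The counts under these alternatives stand without the share of all genes called in the same fits, and fits with a sample left out have less power for every gene.

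Replicate numbers come from the titles, which do not say that they mark a shared mouse or culture. Residuals of same-numbered samples correlated at 0.042 to 0.188 under proliferating and 0.0084 to 0.089 under differentiation conditions, so the numbers were not taken to pair samples, and 3 of 6 and 4 of 6 samples correlated best with their own number. When this number entered the fits (replicate block), the other WNT genes called were 3 for NAD+ under differentiation conditions and 0 for the difference of the effects, and the 10 genes gave 2 calls for NAD+ under differentiation conditions as before. The share of all genes called with the block is not given here. With the block, Wnt5a in Ctrl samples missed the threshold for differentiation (adjusted p = 0.0504).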

Other observations

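Among the less abundant ligands under differentiation conditions, Wnt3 was at 0.73, 0.81 and 0.63 FPKM in Ctrl and 0.36, 0.40 and 0.38 FPKM in NAD+ samples (log2 change -0.77, limma adjusted p = 0.0527), and Wnt4 at 0.93, 0.62 and 0.71 FPKM in Ctrl and 0.32, 0.59 and 0.33 FPKM in NAD+ samples (-0.76, adjusted p = 0.153). Wnt9a was at 0.61, 0.61 and 0.57 FPKM in Ctrl and 0.81, 1.04 and 1.20 FPKM in NAD+ samples (0.67, adjusted p = 0.0833). In each of these genes the NAD+ samples lay outside the range of the Ctrl samples, and none passed the test.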
